A study of Mus musculus with 12 samples.

Results

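The genes described here encode subunits of the oxidative phosphorylation complexes, read in stromal cells sorted from mouse mammary tumours. Members were taken by symbol from the protein-coding genes of the deposited table. They are the nuclear Ndufa, Ndufb, Ndufc, Ndufs and Ndufv genes (complex I), Sdha to Sdhd (complex II), the Uqc genes (complex III), the Cox4 to Cox8 genes (complex IV) and the Atp5 genes (ATP synthase, complex V), together with every protein gene of the mitochondrial genome. Cox4i2 and Ndufa4l2 were left out by the rule. This gave 101 members of 55487 genes, of which 88 are nuclear (36, 4, 11, 19 and 18 for complexes I to V) and 13 are mitochondrial (7 for complex I, 1 for complex III, 3 for complex IV and 2 for complex V). The symbol rule also takes the complex III assembly factors Uqcc1, Uqcc2 and Uqcc3, the supercomplex factor Cox7a2l, and Cox5b-ps and Ndufb1-ps, which the table lists as protein coding. Ndufa4 was counted in complex IV. Atp5o is listed under 2 identifiers, of which the second had no read.

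All mice were untreated FVB MMTV-PyMT animals of 10 weeks, so every population carries the same strain and transgene background. In this model the polyoma middle T oncogene is expressed from a mammary tumour virus promoter, which is active in the mammary epithelium rather than in the stroma. Tumours of 3 mice (27, 30 and 31) were digested with collagenase and DNase, and live cells that stained for PDGFRb but not for CD45, CD31 or EPCAM were sorted into 4 populations of cancer-associated fibroblasts. The icaf gate required Ly6C. The other gates excluded Ly6C: vcaf required CD146 without PDGFRa, whereas m2cafneg and m2cafpos required PDGFRa without CD146 and were split by the absence or presence of NCAM. Each population had 3 libraries, 1 per mouse, so n = 3 throughout, and the 12 libraries held 43898839 to 55363203 reads assigned to genes. Values are CPM (reads of a gene scaled to the same total of gene-assigned reads in every library) with SD, differences are log2 fold changes of CPM + 1 with SE, and adjusted p-values come from limma with the Benjamini-Hochberg method over 15456 genes, with a threshold of 0.05. Gene positions are on GRCm38. Fibroblast transcripts were lower in vcaf than in the other populations. The summed CPM of 10 fibroblast markers was 10176 to 12568 in vcaf against at least 77901 in each of the other 9 libraries, and that of 10 pericyte and smooth muscle markers was 36674 to 58164 in vcaf against at most 607 elsewhere.

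Oxidative phosphorylation moves electrons from NADH and succinate through complexes I to IV to oxygen, and the proton gradient that complexes I, III and IV build drives ATP synthesis by complex V. Complexes I, III, IV and V are mosaics: most subunits are encoded in the nucleus, made in the cytosol and imported, while a few hydrophobic core subunits are encoded, transcribed and translated inside the mitochondrion. Complex II has nuclear subunits only. Mitochondrial genes are transcribed as long polycistronic RNAs by a dedicated polymerase, whereas the nuclear genes are transcribed individually and many carry sites for NRF1, ETS family factors and YY1.

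Promoter sequences were matched for 71 of the 88 nuclear members in the RefSeq table for GRCm38.p6. In windows of 300 bases, 250 before and 50 after the start, the NRF1 palindrome, seen in capitals in Cox6a1 and Ndufa11 below, occurred in 5 of 71 members (7.04%) against 0.977% of 27025 genes. The ETS letters CCGGAAG, sought on both strands, occurred in 16 (22.5% against 9.12%) and the YY1 letters AAGATGGC in 10 (14.1% against 2.88%). At least 1 of these 3 motifs was present in 29 members (40.8%) against 12.3% of all genes. Among the 17492 protein-coding genes, the kind the members are, the shares were 1.32% for NRF1, 11.9% for ETS, 3.22% for YY1 and 15.6% for any of them, so the difference from the members was smaller than over all genes. Most windows held none of these exact letters. The 250 bases upstream of 3 members whose expression is described below are shown because they hold the NRF1 or ETS letters, which are in capitals. Cox6a1 (minus strand, chr5:115348959-115349208) holds the NRF1 letters and the ETS letters in reverse, Ndufa11 (plus strand, chr17:56717512-56717761) the NRF1 letters, and Uqcr11 (minus strand, chr10:80406822-80407071) the ETS letters.
Cox6a1: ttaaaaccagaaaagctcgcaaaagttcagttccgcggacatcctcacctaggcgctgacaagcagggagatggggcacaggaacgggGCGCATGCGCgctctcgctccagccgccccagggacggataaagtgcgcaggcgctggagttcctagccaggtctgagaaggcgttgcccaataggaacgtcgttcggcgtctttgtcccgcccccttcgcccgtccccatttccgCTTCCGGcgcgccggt
Ndufa11: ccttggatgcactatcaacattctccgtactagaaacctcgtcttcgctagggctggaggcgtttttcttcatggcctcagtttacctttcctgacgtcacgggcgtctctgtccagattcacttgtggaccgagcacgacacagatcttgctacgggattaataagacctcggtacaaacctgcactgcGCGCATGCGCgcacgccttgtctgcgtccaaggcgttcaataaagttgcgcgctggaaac
Uqcr11: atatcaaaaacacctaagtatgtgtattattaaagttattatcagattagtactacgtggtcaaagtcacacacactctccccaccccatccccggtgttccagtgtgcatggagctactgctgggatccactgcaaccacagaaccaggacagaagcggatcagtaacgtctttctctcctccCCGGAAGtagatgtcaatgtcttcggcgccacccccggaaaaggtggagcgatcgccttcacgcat
The motifs do not overlap one another in these windows. Members with and without the ETS letters had median log2 fold changes of 0.63 (16 genes) and 0.56 (53 genes) when vcaf was compared with the other populations. For the NRF1 palindrome these were 0.60 (5 genes) and 0.57 (64 genes), and for the YY1 letters 0.58 (10 genes) and 0.57 (59 genes). A match describes letters in a window and is not evidence of a bound site.

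Reads of the nuclear members made up 0.951 ± 0.0719% of all reads in icaf, 0.936 ± 0.0792% in m2cafneg, 0.817 ± 0.0727% in m2cafpos and 1.35 ± 0.100% in vcaf. In mice 27, 30 and 31, in that order here and below, the nuclear share was 1.03, 0.913 and 0.906% in icaf, 0.955, 0.850 and 1.005% in m2cafneg, 0.901, 0.768 and 0.783% in m2cafpos and 1.31, 1.28 and 1.47% in vcaf. Each vcaf library lay above all 9 others. The m2cafneg range overlapped with those of icaf and m2cafpos, while the lowest icaf library (0.906%) lay just above the highest of m2cafpos (0.901%). Within each mouse m2cafpos had the lowest nuclear share. The mitochondrial members took 0.222, 0.265 and 0.191% of reads in icaf, 0.321, 0.289 and 0.391% in m2cafneg, 0.238, 0.268 and 0.275% in m2cafpos and 0.440, 0.561 and 0.391% in vcaf. Here the order within each mouse was icaf lowest, m2cafpos next and m2cafneg above it. The vcaf library was the highest in mice 27 and 30, while in mouse 31 vcaf and m2cafneg had nearly equal shares. These are sorted but bulk libraries, in which fewer cells of a type and less RNA per cell cannot be told apart.

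The proportion of mitochondrial to nuclear member reads varied between populations. Mitochondrial reads per nuclear member read were 0.215, 0.290 and 0.211 in icaf, 0.337, 0.341 and 0.389 in m2cafneg, 0.264, 0.348 and 0.352 in m2cafpos and 0.335, 0.439 and 0.266 in vcaf. Within each of the 3 mice the icaf ratio was below those of the other 3 populations, although the ranges of icaf, m2cafpos and vcaf overlapped across mice. The vcaf ratio of mouse 31 was below those of m2cafneg and m2cafpos in the same mouse, and that of mouse 30 was the highest of all libraries. The 2 most abundant mitochondrial members of a library together held 57.3% to 60.8% of its mitochondrial member reads. They were mt-Cytb and mt-Co1, except in m2cafneg of mouse 27, where they were mt-Cytb and mt-Nd1. Without these 2 members the ratios were 0.0869, 0.119 and 0.0883 in icaf and 0.138, 0.143 and 0.166 in m2cafneg. Again icaf had the lowest ratio within each mouse. Over the 12 libraries the mitochondrial and nuclear sums had a Pearson r of 0.72 and a Spearman rho of 0.52, and over the 9 libraries other than vcaf an r of 0.17. These libraries share mice and a fixed total, and r is given as a description.

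**Figure D1:**
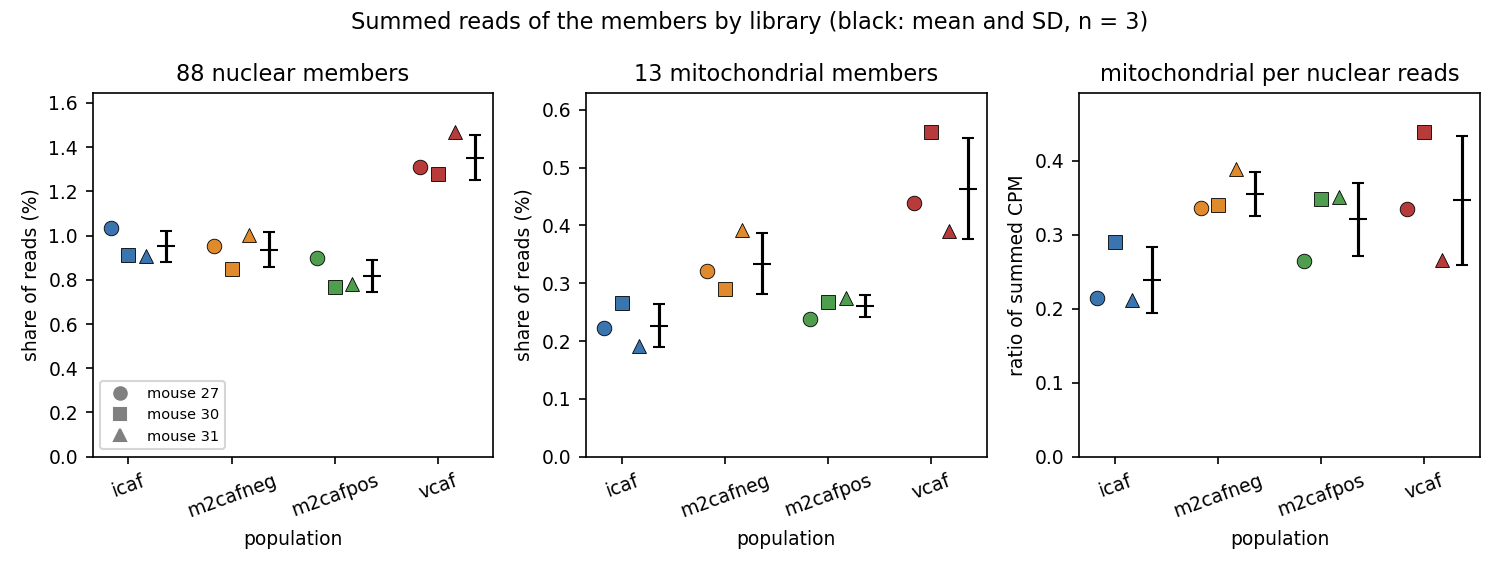
Share of reads of the 88 nuclear members (left, percent), of the 13 mitochondrial members (middle, percent) and the ratio of the summed CPM of both (right), for each population; points are libraries, their shape the mouse, and black marks the mean and SD of 3 libraries. The nuclear share of each vcaf library lies above those of the other 9, while the mitochondrial share of vcaf in mouse 31 (0.391%) is close to that of m2cafneg in the same mouse (0.391%).

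Among the mitochondrial genes, mt-Cytb (complex III), mt-Nd1 (complex I) and mt-Co1 (complex IV) had the highest levels, at 964, 668 and 508 CPM per kb of exon as the mean of 12 libraries. The complex I genes mt-Nd4, mt-Nd2, mt-Nd5 and mt-Nd6 followed, at 174, 123, 109.8 and 52.1 CPM per kb. The complex IV genes mt-Co3 and mt-Co2 and the complex V gene mt-Atp6 stood at 51.9, 29.0 and 41.5 CPM per kb, and mt-Nd3, mt-Atp8 and mt-Nd4l at about 2 (2.12, 2.04 and 1.57). For comparison, the highest nuclear member per kb was Cox6a1 at 398, followed by Cox8a at 336, with medians of 51.7, 80.5, 75.9, 66.5 and 48.1 CPM per kb for the tested members of complexes I to V. Exon length is the union over all annotated transcripts, so genes with long rarely used exons (Ndufb2, at 1.46) come out low.

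Several mitochondrial genes have near-identical copies in the nuclear genome. Of the 100-base windows of each transcript, 99.9% in mt-Co3, 99.5% in mt-Co2 and mt-Atp6, 98.5% in mt-Nd4l and 97.6% in mt-Nd3 recur in transcripts of other annotated genes, chiefly a row of annotated copies at chr1:24611535-24616197. The share was 60.8% for mt-Nd4, 30.8% for mt-Co1, 3.2% for mt-Nd2, and 0 for mt-Nd1, mt-Nd5, mt-Nd6, mt-Cytb and mt-Atp8. The chromosome 1 copies Gm28437 of mt-Co3, Gm28661 of mt-Co2 and Gm10925 of mt-Atp6 matched their genes at 783 of 783, 681 of 681 and 678 of 678 aligned bases, and in each library they were given 0.798 to 1.20, 0.962 to 1.24 and 0.890 to 1.122 times the CPM of the gene. The copy Gm28438 of mt-Nd3 differs from the gene at 1 of 345 bases and was given 16.3 to 44.5 times the CPM of the gene. The first 60 bases of 2 such pairs, in transcript sense from GENCODE M21, are shown because a read within them fits gene and copy equally or is told apart by 1 base; differing bases are in capitals.
mt-Co3: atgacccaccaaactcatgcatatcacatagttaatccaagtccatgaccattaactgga
Gm28437: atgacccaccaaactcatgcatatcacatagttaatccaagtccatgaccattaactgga
mt-Nd3: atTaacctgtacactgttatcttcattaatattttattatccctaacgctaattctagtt
Gm28438: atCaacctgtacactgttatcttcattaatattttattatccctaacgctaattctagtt
How reads that fit both places were counted is not given in the sources used here, so levels of mt-Co2, mt-Co3, mt-Atp6, mt-Nd3 and mt-Nd4l are uncertain, as is that of mt-Atp8, whose end overlaps mt-Atp6 (and mt-Nd4l overlaps mt-Nd4). Adding the CPM of each copy to its gene, a step chosen after the data were seen, changed no call among mt-Co1, mt-Co2, mt-Co3, mt-Atp6 and mt-Nd4 in the 3 main comparisons. The copies held 0.0380 to 0.0633 times the CPM of mt-Co1 and 0.0164 to 0.0286 times that of mt-Nd4. The step could therefore move these genes little, and it mostly rescaled mt-Co2, mt-Co3 and mt-Atp6. The copy of mt-Nd3 alone stood at 13.4 to 51.1 CPM, so the level of mt-Nd3 depends on how these reads were assigned. Its sum with the copy is not given here.

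**Figure D2:**
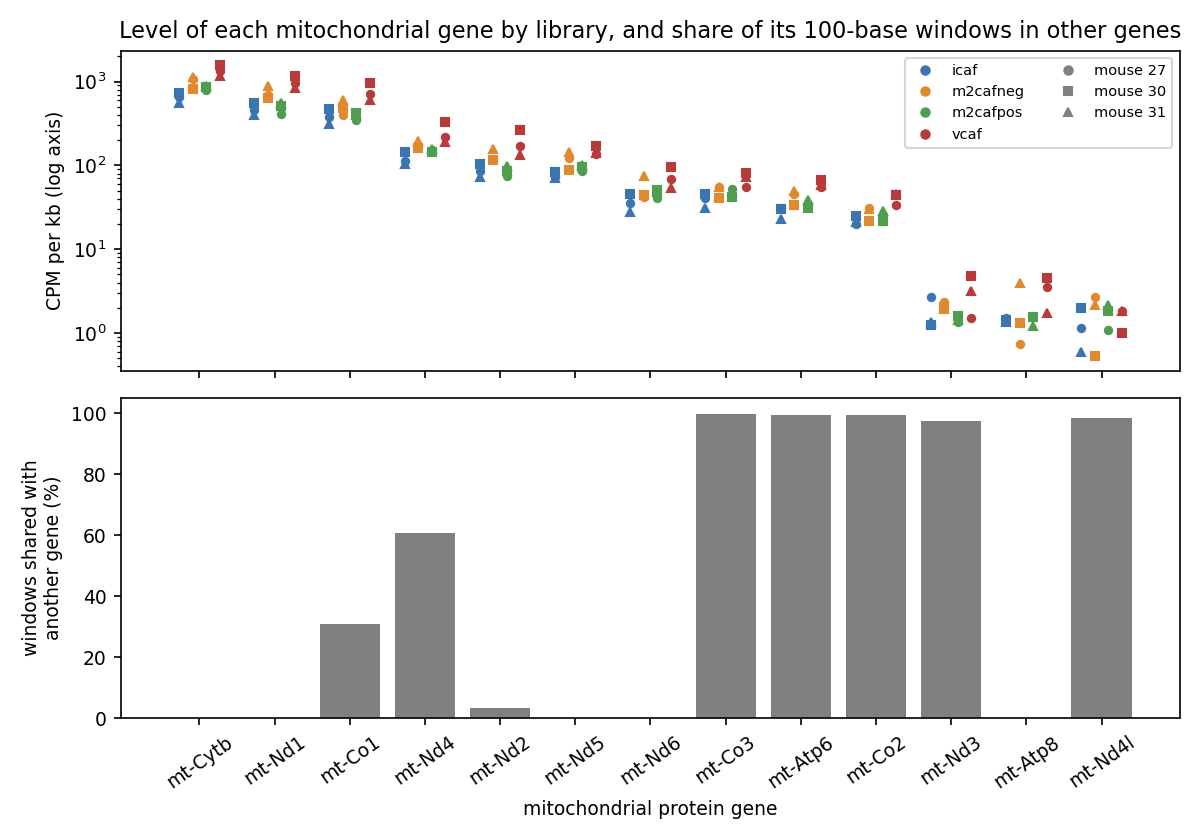
Upper panel, CPM per kb of exon (log axis) of the 13 mitochondrial protein genes in each of the 12 libraries, coloured by population and shaped by mouse; lower panel, percent of the 100-base windows of each gene that recur in another annotated gene. The 3 genes at about 2 CPM per kb include mt-Nd3 and mt-Nd4l, with over 97% of windows shared, and mt-Atp8, with none.

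A filter of at least 1 CPM in at least 3 libraries left 93 members for testing, 83 nuclear and 10 mitochondrial. Below it were mt-Nd3, mt-Nd4l and mt-Atp8, at up to 1.66, 0.805 and 0.924 CPM, and the nuclear genes Cox6a2, Cox8b, Cox7b2, Cox8c and the second Atp5o. Cox6a2 and Cox8b, the striated muscle and brown fat isoforms of complex IV, reached at most 0.323 and 0.980 CPM, and Cox7b2, Cox8c and the second Atp5o had no read, for which 3 reads or 0.0542 to 0.0683 CPM is the limit in a library. That limit covers counting error only. Over the 4 populations, 75 of the 83 nuclear and all 10 tested mitochondrial members differed by the moderated F test of limma, where 73.0% of all genes did. The highest mean was in vcaf for 80 nuclear and 10 mitochondrial members. The lowest mean was in m2cafpos for 62 of the nuclear members but in icaf for 9 of the 10 mitochondrial ones. Of all 15456 genes tested, 9723 had their highest mean in vcaf, 7250 their lowest in m2cafpos and 4228 their lowest in icaf.

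The first comparison was of vcaf with the average of the other 3 populations. All 10 tested mitochondrial and 77 of 83 nuclear members were higher in vcaf and none was lower (none also at an unadjusted limma p under 0.05), with median log2 fold changes of 0.73 and 0.58. Over all genes 53.3% were higher and 14.2% lower in vcaf, and the median was 0.38. By complex, 34 of 36 tested nuclear members were higher in complex I, 4 of 4 in complex II, 9 of 11 in complex III, 14 of 15 in complex IV and 16 of 17 in complex V, with medians of 0.52, 0.41, 0.70, 0.62 and 0.62. In 59 nuclear and 4 mitochondrial members (mt-Cytb, mt-Co1, mt-Co2 and mt-Atp6) all 3 vcaf libraries lay above all 9 others, which held for 25.8% of all genes. Of the 6 tested mitochondrial members with under 50% shared windows, it held for 2 (33.3%). The size of the difference in vcaf depends on how libraries are scaled. Scaling by the median of ratios moved the median of all genes from 0.38 to 0.02, and then 23 nuclear members were higher and 3 lower (Uqcc2, Ndufv3 and Uqcc3), with a median of 0.17, beside 23.5% of all genes higher and 24.7% lower. On that scale 3 mitochondrial members were higher (mt-Nd1, mt-Co1 and mt-Atp6), with a median of 0.31. The edgeR quasi-likelihood test called 23 nuclear members higher and 3 lower, and 4 mitochondrial members higher, beside 23.7% of all genes higher and 23.2% lower. All 23 nuclear members higher after median-of-ratios scaling were among the 77 of the CPM scale, and of the members described next they include Uqcrfs1, Uqcr11, Uqcrc2, Cox8a, Cox7a2, Cox7a1, Cox6b2, Cox4i1, Atp5b, Atp5g3, Atp5g2, Ndufs8, Ndufb8 and Sdhc.

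**Figure D3:**
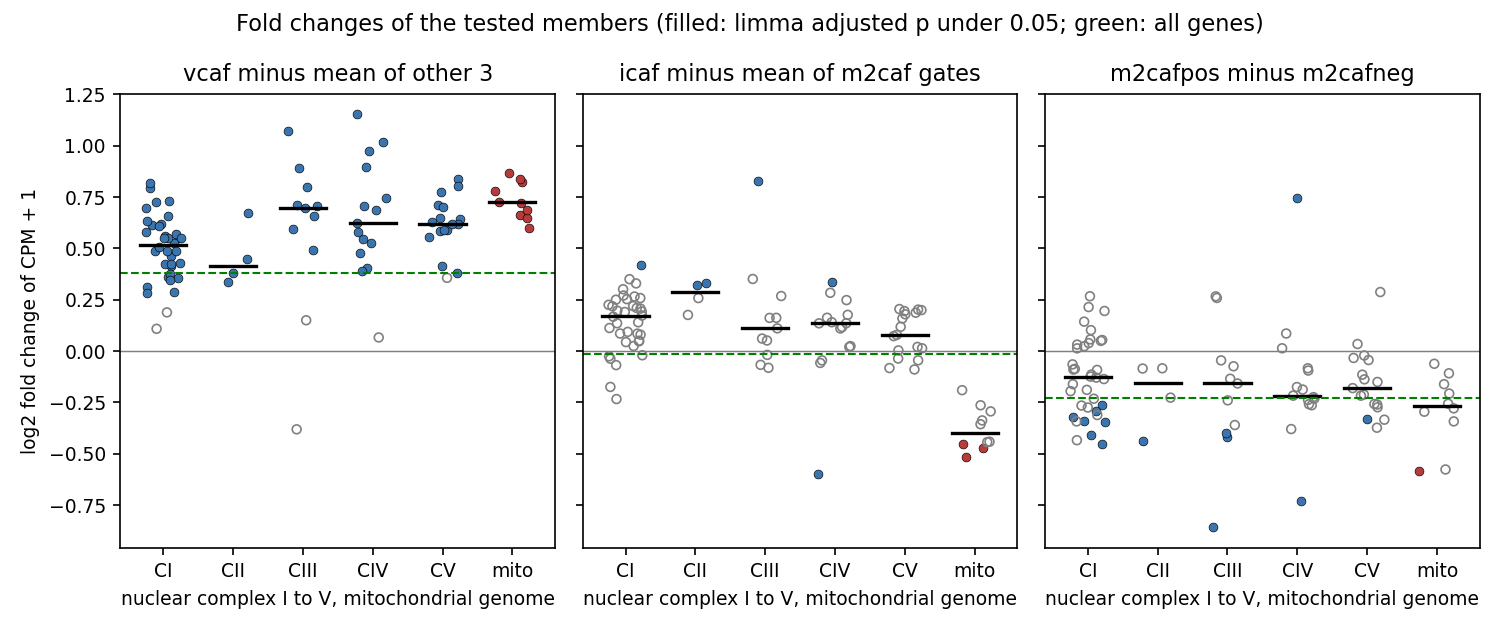
Log2 fold changes of CPM + 1 for the 83 nuclear (blue, by complex I to V) and 10 mitochondrial (red) members tested, in the 3 main comparisons; filled points passed limma at an adjusted p of 0.05, black bars are medians and the green line is the median of all 15456 genes. In the middle panel the mitochondrial median (-0.40) and the nuclear medians lie on opposite sides of 0.

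Uqcrfs1 (ENSMUSG00000038462, chr13:30540308-30545362), the Rieske iron-sulfur protein of complex III, stood at 194, 175 and 196 CPM in vcaf, 116, 114 and 139 in m2cafneg, 88.5, 82.1 and 86.8 in icaf and 65.1, 70.5 and 66.1 in m2cafpos. None of the 4 populations overlapped with another. The log2 fold change in vcaf was 1.07 ± 0.08 (limma adjusted p = 2.80e-07), and 0.66 after median-of-ratios scaling (adjusted p = 7.26e-06). Uqcr11 (ENSMUSG00000020163, chr10:80402997-80406830), a small complex III subunit, was 179 ± 18.5 CPM in vcaf against 72.3 to 121 elsewhere (0.89 ± 0.12). The core proteins Uqcrc1 and Uqcrc2 rose by 0.60 and 0.80. The assembly factor Uqcc2, which helps to make cytochrome b, did not pass the test in vcaf (-0.38 ± 0.18, limma adjusted p = 0.071), and neither did Uqcc3 (0.15 ± 0.09). Uqcc2 was lower in vcaf with the mouse as a block (adjusted p = 0.015) and after median-of-ratios scaling (-0.79, adjusted p = 0.0028).

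In complex IV, the ubiquitous isoforms Cox8a and Cox7a2 and the scarcer Cox7a1 and Cox6b2 had the largest differences. Cox8a (ENSMUSG00000035885, chr19:7215153-7217616), a small subunit present in most tissues, was at 303, 285 and 371 CPM in vcaf and 149 to 196 elsewhere, with no overlap and a log2 fold change of 0.90 ± 0.10 (limma adjusted p = 7.24e-06). Cox7a2 (ENSMUSG00000032330, chr9:79755361-79759878) was at 120.4, 128 and 117 CPM in vcaf and 43.4 to 80.8 elsewhere (0.98 ± 0.18, limma adjusted p = 4.37e-04). Cox7a1 (ENSMUSG00000074218, chr7:30184144-30186078), known as the heart and skeletal muscle isoform of the same subunit, was low in all populations, at 3.44, 4.08 and 4.35 CPM in vcaf, 1.92, 1.57 and 2.24 in m2cafneg, 1.84, 0.865 and 0.911 in icaf and 0.759, 0.760 and 0.729 in m2cafpos. Its vcaf libraries were above all others (1.15 ± 0.15, limma adjusted p = 4.95e-05), while 12 skeletal muscle markers summed to 5.77 to 9.55 CPM in vcaf against 6.36 to 150.4 elsewhere. Cox6b2 (ENSMUSG00000051811, chr7:4751792-4753094), known as the testis isoform of subunit 6b, was at 9.23, 14.7 and 10.0 CPM in vcaf, 6.88, 9.84 and 7.15 in m2cafpos, 4.83, 5.11 and 3.15 in m2cafneg and 3.97, 3.499 and 3.13 in icaf. The vcaf and m2cafpos ranges overlapped, and the log2 fold change in vcaf was 1.02 ± 0.18 (limma adjusted p = 3.67e-04). The partner isoforms Cox6b1, Cox6a1, Cox4i1, Cox7b and Cox7a2l rose by less, at 0.53, 0.48, 0.71, 0.58 and 0.39. The call was lost for Cox7b without vcaf of mouse 27 or 30 (adjusted p = 0.054 and 0.077) and for Cox7a2l without vcaf of mouse 30 or 31 (0.055 and 0.062), and Cox7a2l was at -0.03 after median-of-ratios scaling. Ndufa4 was the complex IV member that did not pass, at 93.3, 98.1 and 123 CPM in vcaf and 72.1 to 129 elsewhere (0.07 ± 0.16, limma adjusted p = 0.72).

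In complex V the catalytic beta subunit gene Atp5b (ENSMUSG00000025393, chr10:128083273-128090391) was at 1036, 871 and 1204 CPM in vcaf and 462 to 739 elsewhere (0.84 ± 0.12, limma adjusted p = 8.50e-05). Atp5g3, 1 of 3 genes for the membrane ring subunit c, rose by 0.81 ± 0.11, and its paralogs Atp5g2 and Atp5g1 by 0.65 and 0.38, the last not without vcaf of mouse 31 (adjusted p = 0.075). Windows shared with other genes made up 34.7% of Atp5g2 and 27.9% of Atp5o, whose values are less certain for that reason. Atp5e, the epsilon subunit, did not pass (0.36 ± 0.18, limma adjusted p = 0.095). In complex I the largest differences were those of Ndufs8 (ENSMUSG00000059734, chr19:3908863-3912774), an iron-sulfur subunit of the electron path, at 198, 170.2 and 198 CPM in vcaf and 88 to 134 elsewhere (0.82 ± 0.12), and of the accessory subunit Ndufb8 (0.79 ± 0.13). Ndufv3 and Ndufa3 did not pass (0.11 and 0.19). Complex II, succinate dehydrogenase, had the lowest median of the 5 complexes, with log2 fold changes of 0.67 ± 0.09 for the membrane anchor Sdhc, 0.45 ± 0.10 for the iron-sulfur subunit Sdhb, 0.38 ± 0.11 for the flavoprotein Sdha and 0.34 ± 0.09 for the anchor Sdhd. Sdha lost the call without vcaf of mouse 31 (adjusted p = 0.058). After median-of-ratios scaling Sdhc was still higher (0.26, adjusted p = 0.022), while Sdhb, Sdha and Sdhd were at 0.03, -0.04 and -0.08 with adjusted p-values of 0.81, 0.79 and 0.5.

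Of the mitochondrial members, mt-Nd2 and mt-Co1 had the largest log2 fold changes in vcaf and mt-Co3 the smallest; mt-Nd6 lost the call without vcaf of mouse 30 (adjusted p = 0.095). The level of mt-Cytb (ENSMUSG00000064370, chrM:14145-15288), cytochrome b, was 1515, 1791 and 1351 CPM in vcaf, against 748, 839 and 628 in icaf, 897, 984 and 1001 in m2cafpos and 1237, 935 and 1302 in m2cafneg. Every vcaf library was above every other library and every icaf library below every other, with a log2 fold change in vcaf of 0.73 ± 0.13 (limma adjusted p = 4.43e-04). Cytochrome c oxidase subunit 1, mt-Co1 (ENSMUSG00000064351, chrM:5328-6872), was at 1098, 1477 and 941 CPM in vcaf, against 578, 728 and 488 in icaf, 542, 644 and 611 in m2cafpos and 622, 746 and 939 in m2cafneg. The vcaf library of mouse 31 exceeded m2cafneg of that mouse by little in this gene, and the difference was 0.84 ± 0.16 (limma adjusted p = 7.35e-04). The complex I gene mt-Nd1 (ENSMUSG00000064341, chrM:2751-3707) was at 912, 1103 and 796 CPM in vcaf, and its m2cafneg library of mouse 31, at 837 CPM, lay within that range (0.82 ± 0.14, limma adjusted p = 3.08e-04). Against m2cafneg alone, 3 of 10 mitochondrial members (mt-Co1, mt-Co2 and mt-Atp6; 5 of 10 with the mouse as a block) were higher in vcaf with a median of 0.47, where 72 of 83 nuclear members were (median 0.55) and 26.6% of all genes. Of the 6 tested mitochondrial members with under 50% shared windows, 1 was higher than in m2cafneg (16.7%). After median-of-ratios scaling no mitochondrial member passed the limma test between these populations (none at an unadjusted p under 0.05, and none by edgeR or DESeq2), while 18 nuclear members were higher beside 9.83% of all genes. Against icaf alone the counts were 10 of 10 (median 0.999) and 59 of 83 (0.48), with 46.1% of all genes higher. After median-of-ratios scaling 8 of 10 mitochondrial members were still higher in vcaf than in icaf (median 0.58), while 11 nuclear members were higher and 8 lower (median 0.07), beside 24.4% of all genes higher and 24.2% lower. Against m2cafpos they were 9 of 10 (0.68) and 74 of 83 (0.69), with 55.5% of all genes higher, and after median-of-ratios scaling 1 of 10 (0.12) and 15 of 83 with 4 lower (0.15), beside 22.9% of all genes higher and 23.3% lower. These pairs share the vcaf libraries.

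RNA of other cell types also differed between the populations. All 20 epithelial markers, each with reads, were higher in vcaf, and their summed CPM was 10288 to 19891 in vcaf, 6591 to 14414 in m2cafneg, 1373 to 3426 in icaf and 751 to 3572 in m2cafpos, although EPCAM-positive cells had been gated out. With the mean of these markers (the epithelial score) as a covariate, 38 nuclear members and 5 mitochondrial members were higher in vcaf, with medians of 0.56 and 0.84, beside 20.6% of all genes higher and 7.76% lower. The score was 7.33 to 8.30 in vcaf, 6.90 to 7.80 in m2cafneg, 4.36 to 5.61 in icaf and 3.93 to 5.85 in m2cafpos. Against icaf and m2cafpos there was no overlap, so there the fit cannot tell the score from the gate, for calls kept or lost. The 18 macrophage markers, none without reads, summed to 629 to 1437 CPM in vcaf, 682 to 1073 in m2cafneg, 108 to 242 in icaf and 172 to 251 in m2cafpos. The 15 endothelial markers summed to 1389 to 1650 CPM in vcaf and 207 to 807 elsewhere, with none at 0. The 12 adipocyte markers, none without reads, summed to 314 to 776 CPM in vcaf and 13.1 to 113 elsewhere, with 3 of 7 tested higher in vcaf, and most of the sum in vcaf was Fabp4. The 6 erythroid markers, none without reads, summed to 75.6 to 126 CPM in vcaf and 15.8 to 94.8 elsewhere, with 3 of 5 tested higher. Of 16 genes induced by tissue dissociation, 13 were higher in vcaf. Their summed CPM was 18536.7 to 23352.5 in vcaf, 19752.7 to 28442.5 in m2cafneg, 12829.4 to 15054 in icaf and 10435.9 to 11459.3 in m2cafpos, so vcaf and m2cafneg overlapped. On this scale 53.3% of all genes were higher in vcaf, so the adipocyte count was below that share and the erythroid count near it. The part of macrophage, endothelial, adipocyte and erythroid RNA and of dissociation in the members' differences was not tested. Over the 9 libraries other than vcaf, the mitochondrial sum and the epithelial score had an r of 0.71, and the nuclear sum and that score an r of 0.27, as descriptions over libraries that share mice.

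The second comparison was of icaf with the average of both m2caf gates, m2cafneg and m2cafpos, and here the medians of nuclear and mitochondrial members had opposite signs. Of the nuclear members, 5 were higher in icaf (Uqcc2, Ndufa11, Sdhc, Sdhd and Cox6a1) and 1 was lower (Cox6b2), where 12.1% of all genes were higher and 14.2% lower. The nuclear median was 0.14, with 67 of 83 values above 0. All 10 mitochondrial values were below 0, with a median of -0.40, and 3 passed the test (mt-Nd5, mt-Cytb and mt-Atp6). In these 3 and mt-Nd4 all icaf libraries lay below the 6 of the m2caf gates, which held for 9.76% of all genes. Of the 6 tested mitochondrial members with under 50% shared windows, 2 passed as lower (33.3%), and 2 had all icaf libraries below (33.3%). The median of all genes was -0.01. Under median-of-ratios scaling 6 nuclear members were higher and 1 lower, 3 mitochondrial members were lower, and the nuclear median was again 0.14, beside 12.5% of all genes higher and 14.7% lower. The difference between the genomes was not itself tested, since no p is given for sums over members.

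The level of mt-Cytb in icaf was 738 ± 106 CPM, against 1158 ± 196 in m2cafneg and 961 ± 55.6 in m2cafpos, a log2 fold change of -0.52 ± 0.14 (limma adjusted p = 0.016). The complex I gene mt-Nd5 (ENSMUSG00000064367, chrM:11742-13565) was at 131, 153 and 129 CPM in icaf, 225, 159.9 and 264 in m2cafneg and 158, 176 and 185 in m2cafpos, without overlap (-0.47 ± 0.14, limma adjusted p = 0.027). The complex V gene mt-Atp6 (ENSMUSG00000064357, chrM:7927-8607) was at 20.9, 20.5 and 15.5 CPM in icaf and 21.2 to 33.9 in both m2caf gates (-0.45 ± 0.14, limma adjusted p = 0.032). Against m2cafneg alone, 5 mitochondrial members were lower in icaf (mt-Nd1, mt-Nd4, mt-Nd5, mt-Cytb and mt-Atp6; median -0.56), where 20.9% of all genes were, and 3 nuclear members were higher, where 8.77% of all genes were. Against m2cafpos alone 13 nuclear members were higher and 1 lower (15.0% and 8.86% of all genes), the mitochondrial median was -0.31, and no mitochondrial member passed limma (1 at an unadjusted p under 0.05). After median-of-ratios scaling 4 and 1 mitochondrial members were lower in these pairs, with medians of -0.42 and -0.44, beside 16.5% and 11.5% of all genes, 12 and 1 nuclear members were higher, beside 13.5% and 9.75%, and 1 and 2 nuclear members were lower. Markers of other cells were lower in icaf as well: 9 of 20 epithelial, 15 of 17 macrophage and 5 of 15 endothelial markers and 6 of 16 dissociation genes, where 14.2% of all genes were. Against m2cafneg alone these were 20 of 20, 17 of 17, 9 of 15 and 12 of 16, where 20.9% of all genes were lower. The part of macrophage and endothelial RNA and of dissociation in the icaf differences was not tested. With the mean of the epithelial markers as a covariate the mitochondrial median was -0.40, but no mitochondrial member was lower and no nuclear member higher by limma (2 and 6 at an unadjusted p under 0.05), and Cox6b2 was lower, beside 5.56% of all genes higher and 5.64% lower. The epithelial score was 4.36 to 5.61 in icaf and 6.90 to 7.80 in m2cafneg, without overlap. Between these populations the fit cannot tell the score from the gate. Leaving out 1 library gave 0 to 4 mitochondrial members lower, with 0 without icaf of mouse 31 and 1 without icaf of mouse 27, m2cafneg of mouse 27 or m2cafpos of mouse 31. The nuclear members higher numbered 1 to 12, with 1 without icaf of mouse 27 or m2cafpos of mouse 31, 2 without icaf of mouse 30, 8 without m2cafpos of mouse 27 and 12 without icaf of mouse 31. The call of mt-Cytb was lost without icaf of mouse 27 or 31 (adjusted p = 0.0503 and 0.0791), that of mt-Nd5 without either of these, m2cafneg of mouse 27 or m2cafpos of mouse 31 (0.0503 to 0.107), and that of mt-Atp6 without icaf of mouse 30 or 31, m2cafneg of mouse 27 or 31, or m2cafpos of mouse 27 or 31 (0.0557 to 0.147). With the mouse as a block, 11 nuclear members were higher and 2 lower beside 14.3% and 18.7% of all genes, and 4 mitochondrial members were lower.

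Uqcc2 (ENSMUSG00000024208, chr17:27122663-27133916) had the largest log2 fold change of the nuclear members in icaf. It was at 127, 101 and 65.2 CPM in icaf, 62.3, 40.3 and 44.1 in m2cafneg, 64.5, 58.2 and 51.9 in m2cafpos and 52.2, 48.7 and 46.2 in vcaf, so each icaf library was above every other, by little in mouse 31. The log2 fold change was 0.83 ± 0.19 against the m2caf gates (limma adjusted p = 0.0058) and stayed past the threshold without any single library, with 0.042 as the highest adjusted p. The complex I membrane subunit Ndufa11 (ENSMUSG00000002379, chr17:56717767-56722141), whose promoter is printed above, was at 92.3, 81.9 and 66.1 CPM in icaf, 62.5, 46.0 and 54.0 in m2cafneg, 75.1, 60.6 and 59.9 in m2cafpos and 82.0, 79.0 and 82.2 in vcaf. Its icaf and m2cafpos ranges overlapped, and the log2 fold change was 0.42 ± 0.12 (limma adjusted p = 0.026). Cox6a1, the most abundant nuclear member per kb, was at 327, 273 and 286 CPM in icaf and 191 to 265 in the m2caf gates (0.34 ± 0.11, limma adjusted p = 0.046). The complex II anchors Sdhc and Sdhd rose by 0.32 and 0.33, and Sdhb and Sdha, at 0.26 and 0.18, did not pass. Without icaf of mouse 27, Ndufa11, Sdhc, Sdhd and Cox6a1 all lost the call, with adjusted p-values of 0.15, 0.11, 0.13 and 0.21, and Ndufa11, Sdhc and Sdhd also without m2cafpos of mouse 31, Ndufa11 and Sdhd without icaf of mouse 30 and Sdhc without icaf of mouse 31. The call of Cox6a1 was lost without any 1 of the icaf or m2cafneg libraries, m2cafpos of mouse 30 or 31, or vcaf of mouse 30. Cox6b2, at 3.13 to 3.97 CPM in icaf, was lower, with a log2 fold change of -0.60 ± 0.19 (limma adjusted p = 0.034), and lost the call without any 1 of the icaf libraries (adjusted p = 0.065, 0.10 and 0.11), m2cafneg of mouse 27 or 30, or m2cafpos of mouse 30.

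**Figure D4:**
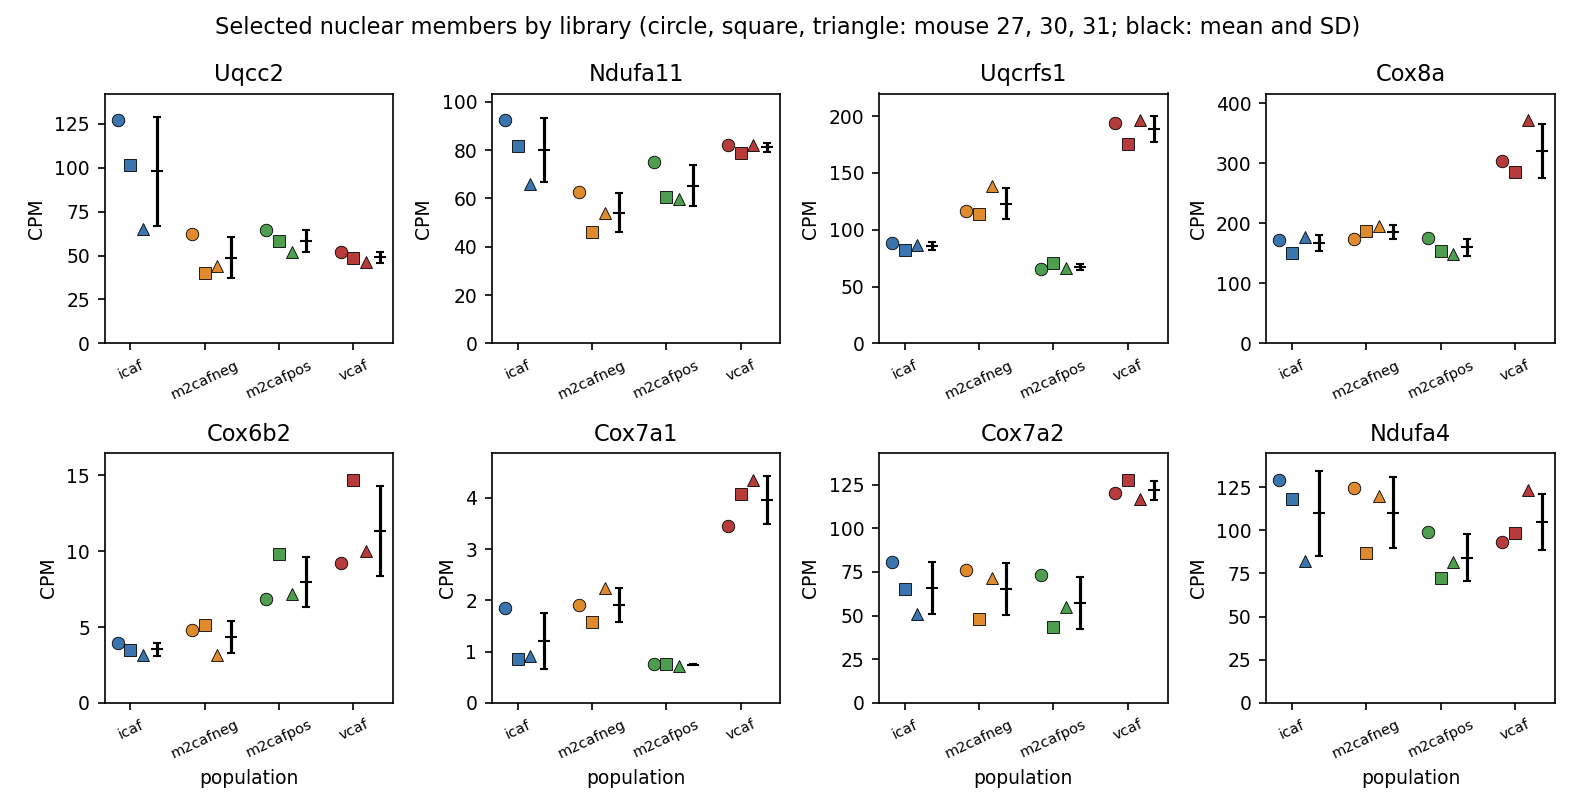
CPM of 8 nuclear members in the 12 libraries by population, with the mouse as shape and the mean and SD of 3 libraries in black. Uqcc2 is highest in icaf, Uqcrfs1 is lower in each step from vcaf through m2cafneg and icaf to m2cafpos, Cox6b2 is higher in m2cafpos than in m2cafneg, and Ndufa4 overlaps in all populations.

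The third comparison set m2cafpos against m2cafneg, the gates that differ in NCAM. On the CPM scale 13 nuclear members were lower in m2cafpos (7 of complex I, 1 of complex II, 3 of complex III, 1 of complex IV and 1 of complex V) and 1 was higher, with a median of -0.16. Over all genes 22.6% were lower and 3.51% higher, with a median of -0.23. The mitochondrial members had a median of -0.27, and mt-Nd1 was the member that passed, at 394, 485 and 528 CPM against 659.8, 615 and 837 (-0.58 ± 0.17, limma adjusted p = 0.028). It lost the call without m2cafneg of mouse 31, m2cafpos of mouse 27 or m2cafpos of mouse 30 (adjusted p = 0.11, 0.11 and 0.055), and 2 mitochondrial members were lower with the mouse as a block, beside 28.5% of all genes lower and 4.68% higher. Median-of-ratios scaling moved the median of all genes from -0.23 to 0.01 and turned the sign of the nuclear median: 6 were higher (Ndufa11, Ndufa1, Ndufa3, Ndufb10, Uqcrq and Cox6b2) and 2 lower (Uqcrfs1 and Cox7a1), with a median of 0.12, beside 8.31% of all genes higher and 8.53% lower. The mitochondrial median was then 0.01, and no mitochondrial member passed by limma (none at an unadjusted p under 0.05, and none by edgeR or DESeq2). Of the 14 nuclear calls on the CPM scale, those of Uqcrfs1, Cox7a1 and Cox6b2 were also made after median-of-ratios and TMM scaling, by edgeR and by DESeq2.

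Uqcrfs1 was 67.2 ± 2.86 CPM in m2cafpos and 123 ± 13.7 in m2cafneg, a log2 fold change of -0.86 ± 0.10 on the CPM scale (limma adjusted p = 4.64e-04) and of -0.58 after median-of-ratios scaling (adjusted p = 0.0016). It also passed without any single library and with the epithelial covariate (-0.81, adjusted p = 0.045). Cox7a1 was lower, with a log2 fold change of -0.73 ± 0.19 (limma adjusted p = 0.016), at levels near 1 CPM where adding 1 CPM understates the change, and lost the call without m2cafneg of mouse 31 (adjusted p = 0.058). Cox6b2 went the other way, with a log2 fold change of 0.75 ± 0.22 (limma adjusted p = 0.027) and no m2cafpos library within the m2cafneg range, and lost the call without m2cafneg of mouse 31 or m2cafpos of mouse 30 (adjusted p = 0.10 in both). Among the members lower on the CPM scale alone were the NADH-binding module subunit Ndufv2 (-0.45 ± 0.11), the accessory subunit Ndufb5 (-0.41 ± 0.10), the complex II flavoprotein Sdha (-0.44 ± 0.13), the assembly factor Uqcc1 (-0.42 ± 0.11) and the ATP synthase gamma subunit Atp5c1 (-0.33 ± 0.10). All of these but Ndufv2 lost the call without m2cafneg of mouse 31, and Sdha also without m2cafneg of mouse 30 or m2cafpos of mouse 27 or 30, Uqcc1 without m2cafpos of mouse 30 or 31, and Atp5c1 without m2cafneg of mouse 27 or any 1 m2cafpos library. All 20 epithelial markers, 16 of 16 dissociation genes, 15 of 17 macrophage and 9 of 15 endothelial markers, 3 of 7 adipocyte and 3 of 5 erythroid markers were lower in m2cafpos, where 22.6% of all genes were. With the epithelial covariate 1 nuclear member was lower (Uqcrfs1), beside 0.983% of all genes. The epithelial score was 3.93 to 5.85 in m2cafpos and 6.90 to 7.80 in m2cafneg, without overlap. A fit with this covariate therefore cannot tell the score from the gate, for calls kept or lost. Leaving out 1 library gave 3 to 13 nuclear members lower, with 3 without m2cafneg of mouse 31, 5 without m2cafpos of mouse 30 and 6 without m2cafpos of mouse 27 or 31.

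**Figure D5:**
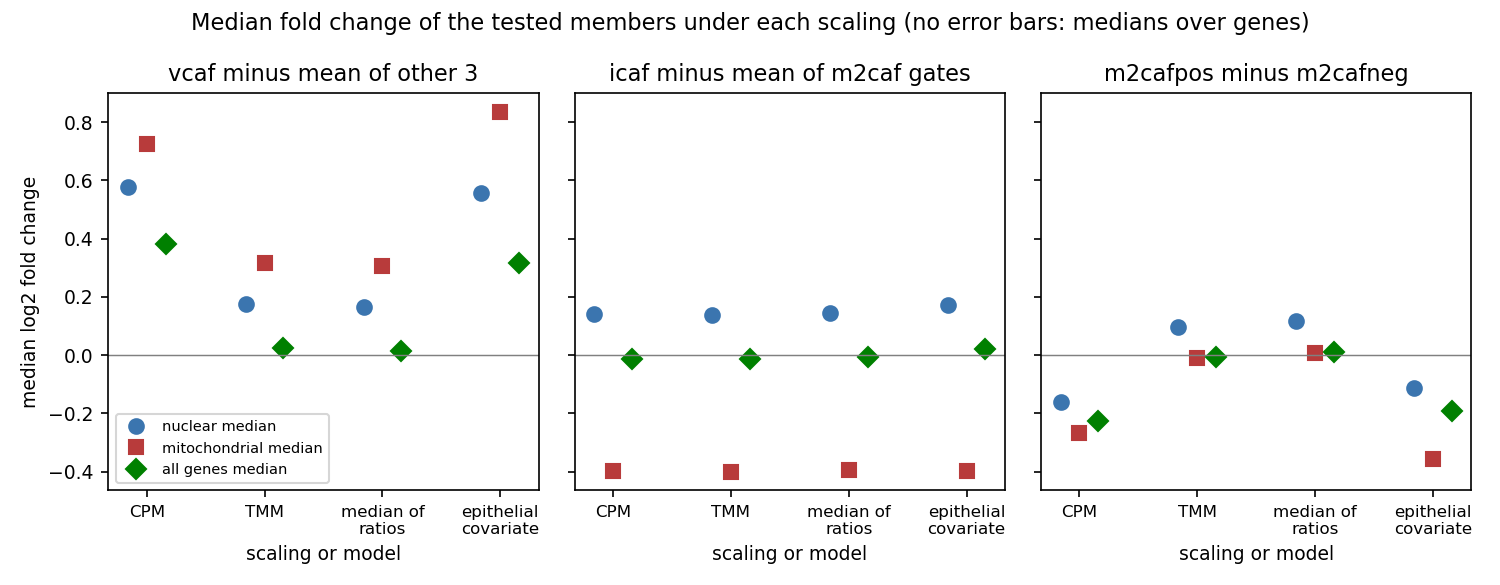
Median log2 fold change of the tested nuclear members (blue circles), mitochondrial members (red squares) and all genes (green diamonds) in the 3 main comparisons under CPM, TMM and median-of-ratios scaling and with an epithelial covariate on the CPM scale. In the middle panel the medians hardly move between scalings, with the mitochondrial one near -0.40, whereas in the right panel the nuclear median goes from -0.16 to 0.12.

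Other genes of the pathway were read from lists outside the rule. Cox4i2 (ENSMUSG00000009876, chr2:152754173-152765037), an alternative isoform of subunit 4, was at 245 ± 33.7 CPM in vcaf and at most 3.57 in the other 9 libraries (7.06 ± 0.32, limma adjusted p = 3.39e-09), while the member Cox4i1 was at 569.7 ± 72.7 CPM in vcaf and 286 to 386 elsewhere. Ndufa4l2 (ENSMUSG00000040280, chr10:127514967-127517154), a paralog of Ndufa4, was at 970.3 ± 117 CPM in vcaf, while it was 13.1 ± 3.44 in icaf, 35.7 ± 3.06 in m2cafpos and 49.9 ± 21.4 in m2cafneg (5.07 ± 0.24, limma adjusted p = 4.11e-09), whereas Ndufa4 itself did not differ past the test. Cytochrome c1 (Cyc1) and cytochrome c (Cycs), which the symbol rule misses, rose in vcaf by 0.85 ± 0.11 and 0.99 ± 0.13, and Ndufab1, the acyl carrier subunit of complex I, by 0.57 ± 0.08.

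Of 40 tested assembly factors, 20 were higher and 1 lower in vcaf (median 0.31), 4 were higher and 1 lower in icaf against the m2caf gates, and 3 were lower in m2cafpos than in m2cafneg. Over all genes 53.3% were higher and 14.2% lower in vcaf, 12.1% higher and 14.2% lower in icaf, and 22.6% lower in m2cafpos, so the assembly factors (50% and 2.5%, 10% and 2.5%, and 7.5%) were near or below the share of all genes. Acad9, a complex I assembly factor, rose by 0.85 ± 0.14 and Ndufaf3 by 0.54 ± 0.09 in vcaf. Of 23 tested genes for transcription, replication and RNA stability of the mitochondrial genome, 20 were higher in vcaf (median 0.57), 1 was higher in icaf and 12 were lower in m2cafpos (52.2%, against 22.6% of all genes). These include the DNA polymerase Polg (0.76 ± 0.11 in vcaf) and the mRNA-binding protein Lrpprc (0.91 ± 0.13). The mitochondrial transcription factor Tfam was 0.36 higher in vcaf, at 24.5, 23.2 and 27.1 CPM against 15.6 to 25.3, with overlap, and its value in icaf against the m2caf gates was -0.28 ± 0.11 (limma adjusted p = 0.07). Among 15 transcriptional regulators of mitochondrial biogenesis 11 were higher in vcaf, and the coactivator Ppargc1a was low in every library, at up to 1.26 CPM. Of 17 tricarboxylic acid cycle enzymes, 17 were higher in vcaf (median 0.59) and 8 lower in m2cafpos (47.1%, against 22.6% of all genes). In icaf, Idh2, the mitochondrial NADP isocitrate dehydrogenase, was lower (-0.56 ± 0.08, limma adjusted p = 2.71e-04). Of 20 carriers, pores and import genes 17, and of 77 mitochondrial ribosomal protein genes 62, were higher in vcaf, where 53.3% of all genes were. Of 98 cytosolic ribosomal protein genes 77 were higher in vcaf and 42 in icaf against the m2caf gates (42.9%), a comparison in which 5 of the 83 nuclear members and 12.1% of all genes were. These counts are on the CPM scale, on which the median of all genes was itself 0.38 in vcaf and -0.23 in m2cafpos.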

How the data were processed

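RNA was measured by sequencing in 12 libraries, 4 sorted populations of 3 mice. Per the submitters' processing notes bcl2fastq, DRAGEN and mm10 were used. The counting tool, strand setting and treatment of reads with several matches were not given in the sources used here. The authors deposited 1 table of CPM per gene. Its values are whole multiples of 1 read (100% of values within 0.001 of a read), 1 read being worth 0.0181 to 0.0228 CPM, and 287 repeated lines were dropped. The library of mouse 27 whose title reads vacf was taken as vcaf.

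The 15456 genes that reached 1 CPM in 3 or more libraries were tested with limma 3.58.1 in R 4.3.3 on log2(CPM + 1), with a trended prior, 1 mean per population, two-sided p-values and Benjamini-Hochberg adjustment over all 15456 genes. Adding 1 CPM understates the change of low genes. Per-kb levels, transcript windows and gene positions used GENCODE M21 (GRCm38), and promoters RefSeq. The fit was also run on simulated reads, drawn as independent libraries with a smaller spread than that of the data and few genes changed. That run does not cover the spread, the pairing by mouse or the scaling of these data. The members, lists and tests were chosen with earlier results of these data known. Named were all mitochondrial and complex II genes, the complex IV isoforms, the 2 members per complex with the largest called change in each comparison, members called against the majority, and up to 2 genes per other list; further members named beside them were chosen after their values were seen.

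Alternatives were a pseudocount of 0.25, no filter, a filter of 10 CPM, median-of-ratios and TMM scaling, scaling without mitochondrial reads, edgeR 4.0.16 and DESeq2 1.42.0 on the recovered reads, the mouse as a block, the mean of the epithelial markers as a covariate, each library left out and, added after the data were seen, only mitochondrial members with under 50% shared windows and the CPM of the chromosome 1 copies added. Since the populations come from the same animals, libraries pair by mouse: deviations from the population means correlated at a median r of 0.29 over 18 pairs of libraries of 1 mouse (0.084 to 0.45) and -0.15 over 36 pairs of different mice. The main p-values rest on the spread between the 3 libraries of a population, pooled over the 4 populations, and do not use this pairing. Only the fit with the mouse as a block uses it.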

Additional observations from a re-analysis of the deposited data

How the results depend on the processing

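In vcaf against the other populations, the 77 nuclear members higher became 23 under median-of-ratios scaling, TMM scaling and edgeR, 22 under DESeq2 and 38 with the epithelial covariate, and the members lower became 3 under the first 4 of these and 1 with the replicate block. The 10 mitochondrial members higher became 3 under both scalings, 4 under edgeR, 5 under DESeq2 and with the covariate, and 6 of the 6 tested with under 50% shared windows. Values turned negative under median-of-ratios, TMM, edgeR and DESeq2 for Sdhd (-0.078, -0.068, -0.067 and -0.073), Sdha (-0.038, -0.028, -0.023 and -0.028), Cox7a2l (-0.025, -0.015, -0.030 and -0.037) and Ndufa11 (-0.10, -0.093, -0.10 and -0.11). Leaving out 1 library gave 69 to 78 nuclear members higher, 0 to 1 lower and 9 to 10 mitochondrial members higher. In icaf against the m2caf gates, the 5 nuclear members higher became 1 without a filter, 11 with the block and 0 with the covariate (1 to 12 with 1 library left out). The 1 lower became 0 without a filter or with the 10 CPM filter and 2 with the block (0 to 1), and the 3 mitochondrial members lower became 1 without a filter and 0 with the covariate (0 to 4). In m2cafpos against m2cafneg, the 1 nuclear member higher became 0 without a filter, with the 10 CPM filter and with the covariate, 6 under median-of-ratios scaling, 5 under TMM, 3 under edgeR and 8 under DESeq2 (0 to 1). The 13 lower became 7 without a filter, 2 under median-of-ratios, TMM, edgeR and DESeq2, and 1 with the covariate (3 to 13). The 1 mitochondrial member lower became 0 without a filter, under those 4 methods and with the covariate, and 2 with the block (0 to 2). The 10 CPM filter took Cox6b2, the 1 nuclear member lower in icaf and higher in m2cafpos, out of testing. No member still tested lost a call with that filter. The other causes were not tested. Dropping the filter adds genes both to the adjustment and to the trended prior, and their parts were not separated. In these comparisons the replicate block ended no call of a member and moved no other count of calls by over 1.5 times. With 3 mice and 8 residual degrees of freedom, small differences are not detectable. At the CPM assigned to them, mt-Nd3, mt-Nd4l and mt-Atp8 were too low to test.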

Other observations

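The 2 mitochondrial ribosomal RNAs, which are transcribed from the same strand as most mitochondrial mRNAs, together stood at 296 to 1195 CPM over the 12 libraries. In vcaf against the other populations mt-Rnr1 and mt-Rnr2 were higher by 0.73 ± 0.24 and 0.79 ± 0.23 (limma adjusted p = 0.017 and 0.0084). In icaf against the m2caf gates, where the 10 mitochondrial protein genes had negative values, the ribosomal RNAs were at -0.03 ± 0.25 and -0.13 ± 0.24 (limma adjusted p = 0.94 and 0.73). Of 12 tested genes of the mitochondrial stress response, 6 were higher and 2 lower in vcaf (50% and 16.7%), near the 53.3% and 14.2% of all genes. The hormone gene Fgf21 was at 14.9 ± 0.202 CPM in m2cafpos, 7.14 ± 2.94 in m2cafneg, 0.799 ± 0.498 in icaf and 0.326 ± 0.198 in vcaf. The transcription factor gene Epas1, which encodes HIF-2 alpha, was at 633 ± 44.1 CPM in vcaf and 11.6 to 65.3 elsewhere.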
